A study of Mus musculus with 6 samples.

Results

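The genes described here were 44 genes of the cell cycle and of proliferation, taken by symbol from the 48440 genes of the deposited read count table. They were chosen as genes known for their part in cell division. By role they divide into 17 genes of DNA replication and S phase and 27 genes of mitosis. RNA was sequenced from subcutaneous tissues of BALB/c nude mice around cartilage that had been engineered from bone marrow mesenchymal stromal cells (BMSCs) of New Zealand white rabbits during 4 weeks of culture. The engineered cartilage (BEC) was wrapped in an electrospun membrane of PCL and collagen and implanted for 12 weeks. In the 3%-Axitinib group (3 samples) the membrane carried axitinib, an inhibitor of the VEGF receptor kinases, at a mass ratio of 3%, and in the 0%-Axitinib group (3 samples) it carried no drug. The labels call the latter samples untreated, and they were read as the 0%-Axitinib group because the deposited design and treatment text name 0%-Axitinib and 3%-Axitinib as the groups. The methods give male nude mice bought at an age of 6 to 8 weeks and a pair of constructs of one group per mouse. Which samples shared a mouse is not given, so the tests measure the spread between samples only. Rabbit cells were part of the harvested constructs, and reads were counted on mouse genes only.

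A cell that is about to divide first makes cyclin E and the transcription factor E2F1, which switch on the enzymes of nucleotide synthesis and the helicase, clamp and polymerases that copy DNA. Later, cyclins A and B with Cdk1, the Aurora and Polo kinases and the kinesins of the spindle separate the chromosomes and the daughter cells, and many of these genes are held silent in resting cells by the DREAM complex. In a healing or implanted tissue the cycling cells may be stromal, vascular or immune, while blood cell precursors of the marrow are among the fastest dividing cells of an adult mouse.

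Between 9225518 and 18403795 reads were counted on genes per sample. Depth was 17761968, 16716411 and 18005908 reads in 0%-Axitinib replicates 1, 2 and 3 and 9225518, 11686084 and 18403795 reads in 3%-Axitinib replicates 1, 2 and 3. Expression is given as CPM, which are counts relative to library size after TMM scaling. A count of 3, taken as the limit of detection for counting error, corresponded to between 0.156 and 0.329 CPM. The lowest count of any member in any sample was 4, in 3%-Axitinib replicate 1, so that every member was detected in every sample. Unmapped reads came to 5.47%, 3.84% and 14.9% of the library in the 0%-Axitinib replicates and 48.4%, 29.2% and 16.8% in the 3%-Axitinib replicates.

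Some libraries stood apart in their markers of cell types. 0%-Axitinib replicate 3 carried markers of blood cell precursors, the cells of marrow. All 14 genes of the neutrophil precursor list were highest in this library, and their summed expression was 22.5, 13.5 and 21343 CPM in the 0%-Axitinib replicates and 58.2, 56.0 and 20.1 CPM in the 3%-Axitinib replicates. Its most abundant gene was Ngp, and the defining gene Elane was measured at 662 CPM in this library against at most 5.92 CPM in any other. All 17 genes of the erythroid precursor list that the table holds were highest in the same library, with sums of 457, 405 and 22954 CPM in the 0%-Axitinib replicates and 171, 383 and 539 CPM in the 3%-Axitinib replicates. The most abundant was the globin gene Hbb-bs, and Rhag, Gata1, Hemgn and Tspo2 had at most 3 counts in each of the other 5 libraries. The B cell precursor list reached 324 CPM there against at most 57.6 CPM elsewhere. That list was led by Ebf1, which is not restricted to B cells, while Vpreb1, Vpreb2, Igll1, Rag1, Rag2 and Dntt had at most 3 counts in each other library. For the megakaryocyte list (10 of 10 genes highest in this library, most abundant Pf4) the sum was 1031 CPM against at most 249 CPM elsewhere, with Gp5 and Gp6 at no more than 3 counts in the others. The T cell list was likewise highest there for 10 of 10 genes, at 283 CPM against at most 36.8 CPM. The blood progenitor list, led by Spi1, stood out less. In this library 6 of its 10 genes were highest, and its sum was 854 CPM against at most 759 CPM elsewhere.

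The 3%-Axitinib samples also differed among themselves. Genes of skeletal muscle summed to 130, 21.2 and 21.7 CPM in the 0%-Axitinib replicates and to 11783, 24.6 and 7016 CPM in 3%-Axitinib replicates 1, 2 and 3, with Myh4 as the most abundant gene and Ckm and Myh4 at 0 in 3%-Axitinib replicate 2. Osteoblast genes, led by Ibsp, summed to 349, 278 and 757 CPM in the 0%-Axitinib replicates and to 1368, 13384 and 2596 CPM in the 3%-Axitinib replicates. Fibroblast and matrix genes, led by Col1a1, summed to 27943, 13946 and 10966 CPM and to 24487, 71886 and 27153 CPM in the same order. Muscle RNA was therefore high in 3%-Axitinib replicates 1 and 3, and bone and matrix RNA in 3%-Axitinib replicate 2. A further difference was skin: keratinocyte genes, led by Krt1, reached 871 CPM in 0%-Axitinib replicate 2 and at most 25.3 CPM in the other samples. Endothelial genes, led by Plvap, summed to 1561, 991 and 1545 CPM in the 0%-Axitinib replicates and to 507, 746 and 796 CPM in the 3%-Axitinib replicates. The part of these cell types in the results below was not tested. In bulk tissue, fewer dividing cells and less RNA of these genes per cell cannot be told apart.

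Cell cycle RNA was far more abundant in 0%-Axitinib replicate 3 than in any other sample, and it differed little between 0%-Axitinib replicates 1 and 2. The members together took 0.0580%, 0.0562% and 0.332% of the reads on genes in 0%-Axitinib replicates 1, 2 and 3. In 3%-Axitinib replicates 1, 2 and 3 they took 0.0357%, 0.0754% and 0.0415%. Replicate 3 of the 0%-Axitinib group was the highest of the 6 samples for 43 of the 44 members, against 28.3% of all genes tested. Relative to the mean of 0%-Axitinib replicates 1 and 2, its level was 6.59 times as high at the median member, from 1.43 times for E2f1 to 23.9 times for Ube2c. At the other end, 3%-Axitinib replicate 1 was the lowest sample for 36 members, against 12.7% of all genes tested. 3%-Axitinib replicate 2 was the highest treated sample for 42 members and lay above both 0%-Axitinib replicates 1 and 2 for 39. The share of all genes with these orders was not counted. Relative to the mean of 0%-Axitinib replicates 1 and 2, the median of all genes stood at 0.985 times in this sample.

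**Figure D1:**
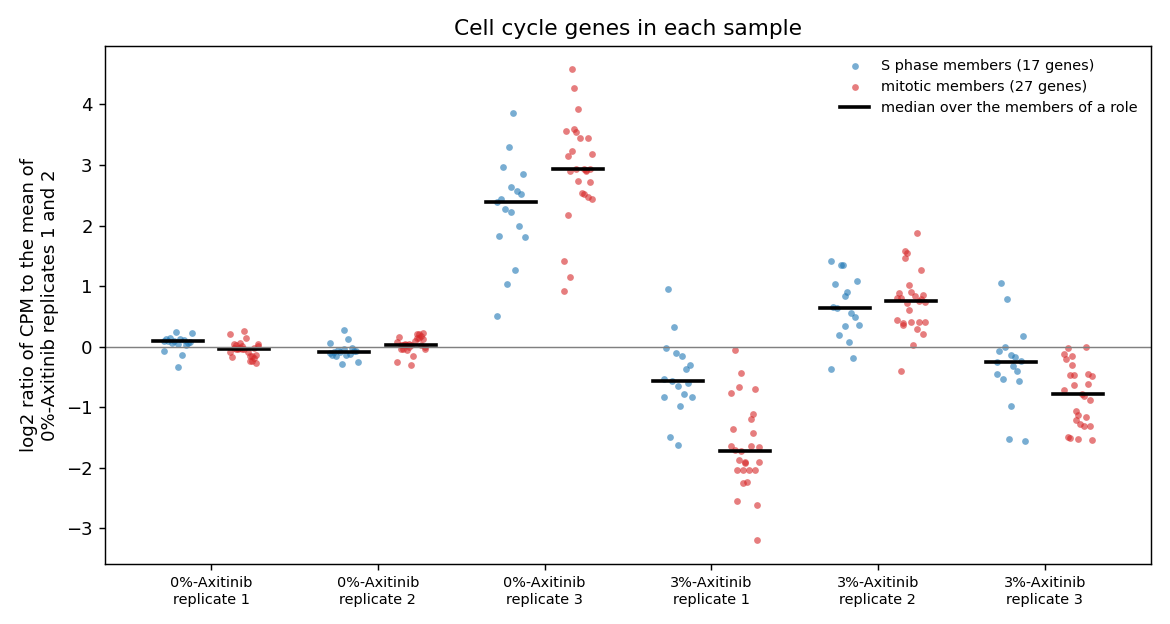
Expression of each of the 44 members in each of the 6 samples, as the log2 ratio of its CPM to the mean of 0%-Axitinib replicates 1 and 2; points are genes (blue, 17 S phase members; red, 27 mitotic members) and black bars are the median of each role. Both roles lie far above the line at 0 in 0%-Axitinib replicate 3, above it in 3%-Axitinib replicate 2, and below it in 3%-Axitinib replicates 1 and 3, where the mitotic median is the lower of the pair.

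With all 6 samples, the log2 fold change was below 0 for 43 of the 44 members, against 7905 of the 15257 genes tested. Few of the members passed a test. The median log2 fold change (3%-Axitinib minus 0%-Axitinib) was -1.58 over the members and -0.034 over the 15257 genes tested. The criterion follows the published work, and its P-value was taken here as unadjusted. It asks for a difference of 1.5-fold or more together with a P-value no larger than 0.05, and it was met by 4 members in the lower direction, namely Ect2, Kif11, Mki67 and Mcm4, and by 0 in the higher direction. Among all genes tested, 11.7% met it as lower and 9.54% as higher, so that with these settings the members' share was not above the background. That relation depended on the settings: DESeq2's Wald test gave 13 of the 33 members to which it assigned a P-value as lower against 13% of all genes with one, edgeR without a filter gave 19 against 9.44%, and leaving out 0%-Axitinib replicate 1 or 2 gave 23 against 12% or 19 against 10.1%, so that the members exceeded the background there. They did not with limma-voom (0 against 9.73%), without 3%-Axitinib replicate 1 (0 against 8.24%) or replicate 3 (1 against 8.43%). Leaving out 0%-Axitinib replicate 1 or 2 makes replicate 3, the highest sample for 43 members, a larger part of its group. These omissions thus themselves lower the fold changes of the members. When libraries were scaled by total counts, the calls over all genes moved from 1785 lower and 1456 higher to 2437 lower and 998 higher, the median of all genes to -0.16, and 9 members met the criterion as lower against 16% of all genes. DESeq2 withheld a P-value, as it does where a single count dominates a gene, from Mki67, Top2a, Kif11, Rrm2, Aurka, Birc5, Ccna2, Ccnb2, Cdc20, Cdk1 and Ube2c. An unadjusted p of at most 0.05 was reached by 5 members, the fifth being E2f1, and by 23.5% of all genes. After Benjamini-Hochberg adjustment over all genes tested, 0 members passed the threshold of 0.05 by edgeR's quasi-likelihood test, which 0.00655% of all genes passed. DESeq2's Wald test gave 1 such member, Ect2 (adjusted p = 0.0305, with a range of 0.0305 to 0.354 over all settings tried), while 13% of all genes with a P-value passed by that test, and limma-voom gave 0, with 1 member and 21.8% of all genes at an unadjusted p of at most 0.05. Complete separation, with the 3%-Axitinib samples below, was seen for 3 members, Ect2, E2f1 and Mcm4, against 16.6% of all genes tested in that direction, and for 0 members with the 3%-Axitinib samples above, against 14.7%.

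Without 0%-Axitinib replicate 3, the difference between the groups largely went from the members. The median log2 fold change became -0.14 over the members and 0.021 over the 15690 genes then tested. Of the 44 members 27 lay below 0, against 7667 of all genes then tested. The criterion was met by 0 members as lower, against 13.7% of all genes, and by 1 as higher, against 14.5% of all genes. This member was Mcm7, which after adjustment also passed 0.05 by edgeR's test, as did 7.98% of all genes. Groups were fully separate for 3 members in the lower direction (Ect2, E2f1 and Mcm4), against 27.1% of all genes, and for 2 in the higher direction (Mcm7 and Gins2), against 26.6%. The counts of members were thus below the background shares in each direction.

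**Figure D2:**
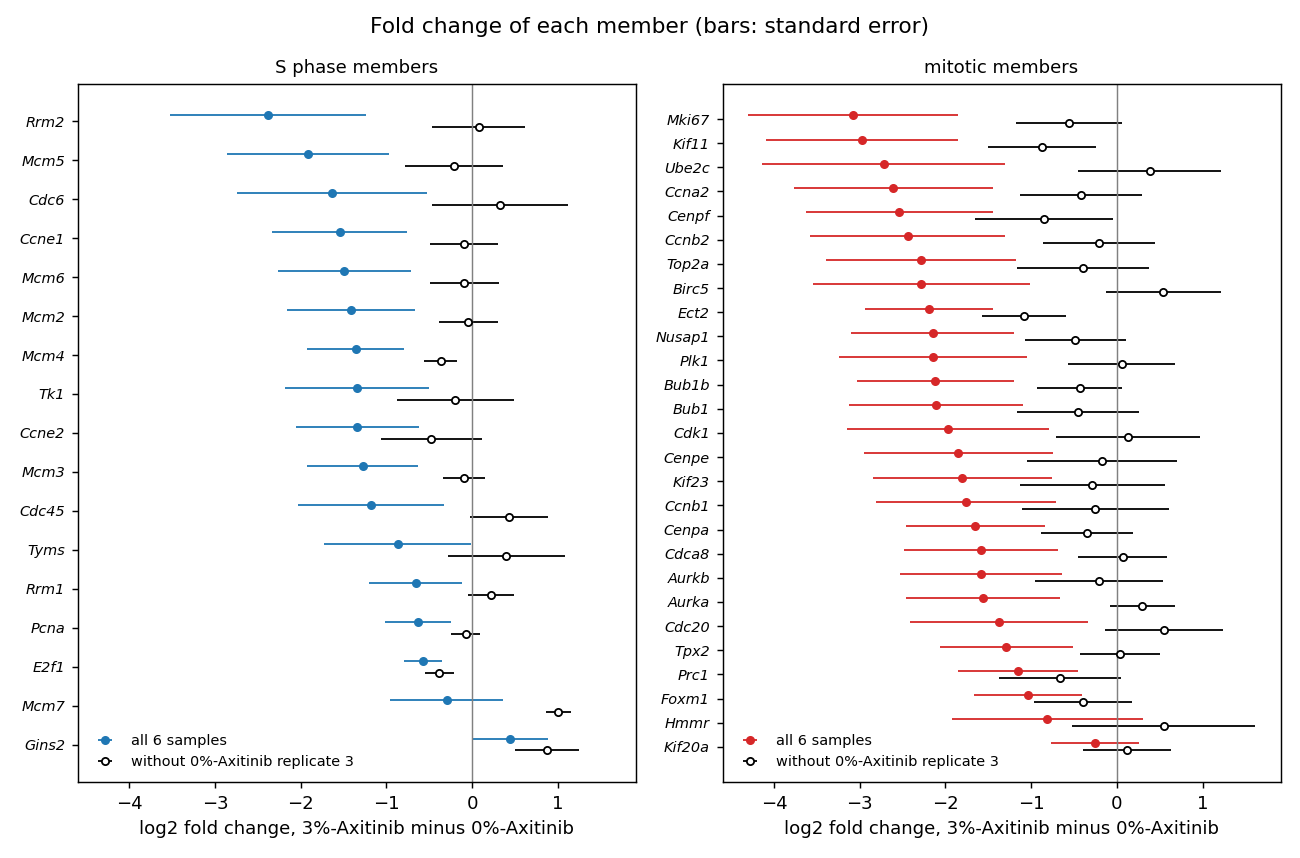
The log2 fold change of each member, 3%-Axitinib minus 0%-Axitinib, with its SE from edgeR's quasi-likelihood fit, for S phase members (left) and mitotic members (right). Filled points use all 6 samples and open points leave out 0%-Axitinib replicate 3; the filled points reach -3.08 at Mki67, while the open points scatter around 0, between -1.08 at Ect2 and 1.00 at Mcm7.

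Among the S phase members, the genes that open this phase differed in how far they followed the rest. E2f1, the transcription factor that turns on replication genes (chromosome 2 of GRCm38, 154559407 to 154569892), was measured at 29.3, 32.1 and 43.8 CPM in the 0%-Axitinib replicates and 21.2, 23.7 and 25.9 CPM in the 3%-Axitinib replicates. The groups did not overlap, and the treated samples lay close to each other. The log2 fold change, given with its standard error (SE), was -0.57 (SE 0.22, unadjusted p = 0.0367, adjusted p = 0.184, edgeR), and it was -0.38 (SE 0.16) without 0%-Axitinib replicate 3. It was the member least raised in 0%-Axitinib replicate 3. The cyclin E genes, Ccne1 and Ccne2, whose products drive entry into S phase, had log2 fold changes of -1.55 and -1.34, which were -0.097 and -0.48 without that library. Cdc6, which loads the helicase onto origins of replication, had a log2 fold change of -1.64, and of 0.33 without that library.

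The replicative helicase is a ring of the 6 proteins encoded by Mcm2 to Mcm7, and its genes did not move alike. Mcm4 (chromosome 16, 15623897 to 15637400) was measured at 20.7, 19.8 and 80.7 CPM in the 0%-Axitinib replicates and at 15.7, 17.8 and 13.7 CPM in the 3%-Axitinib replicates. All 3 treated samples lay below all 0%-Axitinib samples, and the log2 fold change was -1.36 (SE 0.57, unadjusted p = 0.0475, adjusted p = 0.208, edgeR). Without 0%-Axitinib replicate 3 it was -0.37 (SE 0.19, adjusted p = 0.217, against 0.0994 to 0.411 over all settings tried). Mcm5 (chromosome 8, 75109569 to 75128439) had 17.1, 13.96 and 121.6 CPM in the 0%-Axitinib replicates and 5.48, 24.2 and 10.7 CPM in the 3%-Axitinib replicates. The treated samples lay on both sides of 0%-Axitinib replicates 1 and 2, and the log2 fold change of -1.92 (SE 0.95) was -0.21 (SE 0.57) without 0%-Axitinib replicate 3. The fold changes of Mcm2, Mcm3 and Mcm6 were -1.41, -1.27 and -1.49 with all samples and -0.045, -0.093 and -0.094 without that library.

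Mcm7 (chromosome 5, 138164583 to 138172422) was the exception of this ring. It was measured at 27.3, 24.2 and 139.6 CPM in the 0%-Axitinib replicates and at 49.8, 52.5 and 53.1 CPM in the 3%-Axitinib replicates. The treated samples were nearly equal, and they lay between the high 0%-Axitinib replicate 3 and the low replicates 1 and 2. The log2 fold change was -0.30 (SE 0.66, adjusted p = 0.808, edgeR) with all samples. Without 0%-Axitinib replicate 3 it was 1.00 (SE 0.14, unadjusted p = 3.6e-04, adjusted p = 0.0379), and over all settings tried the adjusted p lay between 0.0310, with 3%-Axitinib replicate 2 left out as well, and 0.897. Levels of different genes can be set side by side only per length, so the CPM of each subunit was divided by the joined length of all its annotated exons. This comparison was chosen after the values were seen. The joined length depends on the transcripts annotated for a gene, and so do the shares of the subunits. Mcm7 then made up 20.6%, 20.4% and 20.6% of the summed level of Mcm2 to Mcm7 in 0%-Axitinib replicates 1, 2 and 3 and 44.2%, 30.0% and 39.6% in the 3%-Axitinib replicates. Its share was the same in 0%-Axitinib replicate 3 as in replicates 1 and 2 even though the summed level was 30.0, 26.8 and 153 CPM per kb in these samples, and it was larger in every 3%-Axitinib sample, where the sum was 25.5, 39.6 and 30.3 CPM per kb. The share of Mcm5 was 14.3%, 13.0% and 19.8% in the 0%-Axitinib replicates and 5.39%, 15.3% and 8.82% in the 3%-Axitinib replicates.

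The position of Mcm7 limits how this can be read. On the other strand its 3′ end overlaps that of Cops6, which encodes a subunit of the COP9 signalosome, by 64 bases, and elsewhere it overlaps Ap4m1 by 421 bases. Whether reads were counted by strand is not given in the sources used here. Cops6, looked up after the values of Mcm7 were seen, was measured at 70.3, 63.8 and 90.2 CPM in the 0%-Axitinib replicates and at 121, 131 and 116 CPM in the 3%-Axitinib replicates. Its groups did not overlap, and without 0%-Axitinib replicate 3 its log2 fold change was 0.87 (SE 0.15, adjusted p = 0.0393, edgeR). Ap4m1 had 14.001, 13.8 and 6.66 CPM against 10.7, 11.4 and 11.7 CPM and a log2 fold change of -0.31 (adjusted p = 0.297) in that fit. Reads on overlapping genes were counted apart, in a line that names no gene. Whether other reads of Cops6 were counted for Mcm7 was not tested.

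**Figure D3:**
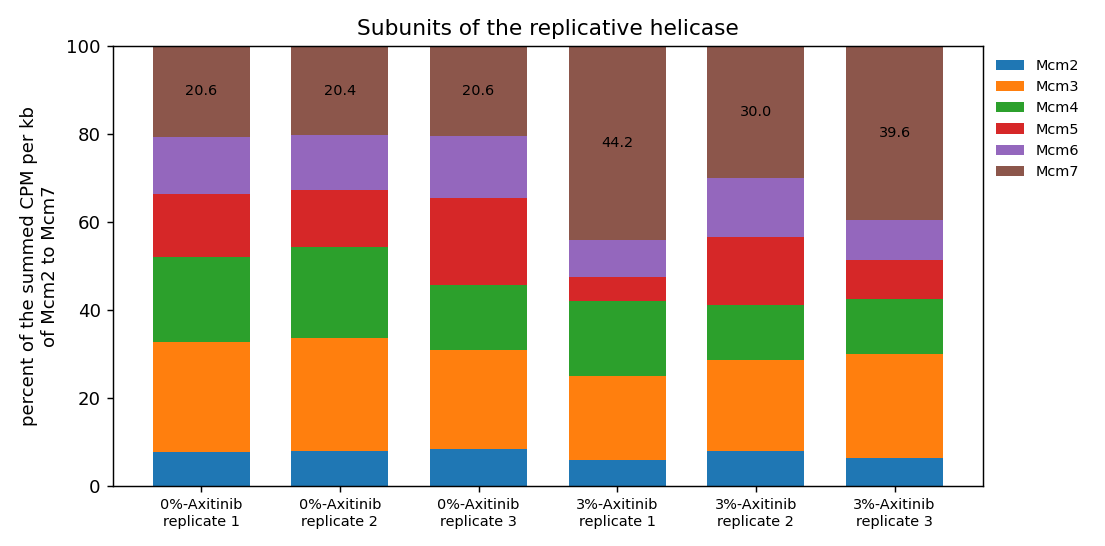
Share of each subunit in the summed expression per kb of exon of the helicase genes Mcm2 to Mcm7, in percent, in each of the 6 samples; the number in each bar is the share of Mcm7. Mcm7 holds between 20.4% and 20.6% in the 0%-Axitinib samples and between 30.0% and 44.2% in the 3%-Axitinib samples.

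The remaining S phase members make and use the building blocks of DNA. Pcna, the sliding clamp of the DNA polymerases (chromosome 2, 132249162 to 132253314), was measured at 97.4, 118 and 259.7 CPM in the 0%-Axitinib replicates and at 96.7, 114 and 95.9 CPM in the 3%-Axitinib replicates. Apart from 0%-Axitinib replicate 3, all samples of Pcna lay within a narrow range, and the log2 fold change was -0.63 (SE 0.38, adjusted p = 0.349, edgeR) with that library and -0.078 (SE 0.17) without it. Rrm2, the regulated subunit of ribonucleotide reductase (chromosome 12, 24708241 to 24714146), had 11.4, 9.48 and 152 CPM in the 0%-Axitinib replicates and 5.26, 19.4 and 8.31 CPM in the 3%-Axitinib replicates. It had the largest excess in 0%-Axitinib replicate 3 of the S phase members, 14.5 times the mean of replicates 1 and 2, and its log2 fold change of -2.38 (SE 1.14) was 0.073 without that library. For Rrm1, the other subunit of the same enzyme, the excess was 3.54 times and the log2 fold changes were -0.66 and 0.22. Tyms, which makes thymidylate (chromosome 5, 30058202 to 30073617), had 7.08, 6.16 and 34.8 CPM against 3.73, 17.7 and 4.85 CPM. The spread of its treated samples covered both low 0%-Axitinib replicates, and the log2 fold change of -0.87 (SE 0.86) was 0.40 without 0%-Axitinib replicate 3. Thymidine kinase 1, encoded by Tk1, had log2 fold changes of -1.34 and -0.20 in the same fits. Cdc45 and Gins2 join the ring to form the moving helicase. Cdc45 had log2 fold changes of -1.18 and 0.43, and Gins2, the member with the highest fold change with all samples, had 0.44 and 0.87 (SE 0.37 without that library).

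Most mitotic members were lower in 3%-Axitinib replicates 1 and 3 (24 of 27) and higher in replicate 2 (25 of 27) than in both low 0%-Axitinib samples. How many of all genes had these orders was not counted, so these counts have no background share. Mki67, which encodes the proliferation marker Ki-67 (chromosome 7, 135689784 to 135716361), was measured at 20.9, 21.9 and 325 CPM in the 0%-Axitinib replicates and at 5.70, 28.2 and 9.76 CPM in the 3%-Axitinib replicates. Its log2 fold change was -3.08 (SE 1.23, unadjusted p = 0.0407, adjusted p = 0.194, edgeR), the lowest of all members, and it was -0.56 (SE 0.62, adjusted p = 0.553) without 0%-Axitinib replicate 3, with adjusted p from 0.0393 to 0.553 over the 15 settings that gave it one. The lowest of these came from leaving out 3%-Axitinib replicate 2, its highest treated sample, as well. Top2a, the topoisomerase that untangles sister chromatids (chromosome 11, 98992943 to 99024189), had 19.4, 18.5 and 173 CPM in the 0%-Axitinib replicates and 5.04, 31.7 and 6.52 CPM in the 3%-Axitinib replicates. Its log2 fold change was -2.28 (SE 1.11, adjusted p = 0.260) and -0.40 (SE 0.77) without that library. For both markers, 3%-Axitinib replicates 1 and 3 lay below every 0%-Axitinib sample, whereas replicate 2 lay above 0%-Axitinib replicates 1 and 2.

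Kif11, Ect2 and Cenpf had, with Mki67, the lowest P-values among the mitotic members. Kif11, the kinesin that pushes the spindle poles apart (chromosome 19, 37376403 to 37421859), was measured at 5.10, 4.19 and 50.9 CPM in the 0%-Axitinib replicates and at 0.987, 4.72 and 1.91 CPM in the 3%-Axitinib replicates. Its log2 fold change was -2.98 (SE 1.12, unadjusted p = 0.0326, adjusted p = 0.177, edgeR) and -0.87 (SE 0.63) without 0%-Axitinib replicate 3. Ect2, the exchange factor that triggers the contractile ring (chromosome 3, 27097222 to 27153878), had 3.70, 3.49 and 16.1 CPM in the 0%-Axitinib replicates and 1.10, 2.73 and 1.27 CPM in the 3%-Axitinib replicates. It was the mitotic member whose groups did not overlap, with a log2 fold change of -2.19 (SE 0.75, unadjusted p = 0.0218, adjusted p = 0.152). Without 0%-Axitinib replicate 3 the log2 fold change of Ect2 was -1.08 (SE 0.49, unadjusted p = 0.0670), still the lowest of the members in that fit. Cenpf, a protein of the outer kinetochore (chromosome 1, 189640606 to 189688086), had 3.64, 4.42 and 31.0 CPM against 0.439, 4.63 and 1.62 CPM and a log2 fold change of -2.54 (SE 1.09), which was -0.85 (SE 0.81) without that library.

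At the other end of the order, Hmmr and Kif20a had the highest P-values among the mitotic members. Hmmr, a spindle-associated receptor of hyaluronan (chromosome 11, 40701395 to 40733422), had 2.45, 3.02 and 15.7 CPM in the 0%-Axitinib replicates and 0.877, 10.1 and 1.10 CPM in the 3%-Axitinib replicates. The treated values were split between one high and a pair of low samples, and the log2 fold change was -0.81 (SE 1.12) or 0.55 without 0%-Axitinib replicate 3. Kif20a, a kinesin of the central spindle (chromosome 18, 34624613 to 34633277), had 4.32, 3.14 and 7.04 CPM against 2.19, 6.54 and 3.41 CPM. Its log2 fold change was -0.26 (SE 0.52), which became 0.11 without 0%-Axitinib replicate 3 and 0.045 without 3%-Axitinib replicate 1. Kif20a shares its locus with Cdc23 on the other strand over 2327 bases, and 18 of the 44 members overlap some gene on the other strand in the GENCODE annotation.

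The other mitotic members are given by the step they serve, with the log2 fold change of all samples first and that without 0%-Axitinib replicate 3 second. The cyclins of mitosis and their kinase had -2.61 and -0.42 for Ccna2, -1.76 and -0.25 for Ccnb1, -2.44 and -0.21 for Ccnb2, and -1.97 and 0.13 for Cdk1. Foxm1, the transcription factor of late cell cycle genes, had -1.03 and -0.40. In the chromosomal passenger complex, which corrects the attachment of chromosomes, the values were -1.58 and -0.21 for the kinase gene Aurkb, -2.28 and 0.54 for Birc5, and -1.59 and 0.066 for Cdca8. The polar kinases Aurka and Plk1 had -1.56 and 0.30, and -2.15 and 0.054. At the checkpoint that delays chromosome separation, Bub1 and Bub1b had -2.11 and -0.45, and -2.12 and -0.44. Cdc20 and Ube2c, which start the destruction of cyclin B, had -1.38 and 0.55, and -2.72 and 0.38. The genes of centromere and kinetochore, Cenpa and Cenpe, had -1.65 and -0.35, and -1.85 and -0.17. For the spindle proteins Tpx2 and Nusap1 the values were -1.29 and 0.033, and -2.15 and -0.49, and for the genes of cytokinesis, Prc1 and Kif23, they were -1.15 and -0.66, and -1.80 and -0.29. All of these had log2 fold changes below 0 with all samples. In the fit without 0%-Axitinib replicate 3, they lay on both sides of 0 and none of them met the criterion.

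Set against each other, the median mitotic gene lay further from the low 0%-Axitinib samples than the median S phase gene, on either side. The median log2 fold change was -1.34 over the 17 S phase members and -1.97 over the 27 mitotic members with all samples. These medians were -0.078 and -0.25 when 0%-Axitinib replicate 3 was left out. The mean log2 CPM of the S phase members was 3.78, 3.66 and 5.97 in 0%-Axitinib replicates 1, 2 and 3 and 3.23, 4.35 and 3.43 in the 3%-Axitinib replicates. For the mitotic members it was 2.61, 2.69 and 5.54, and 1.09, 3.39 and 1.88. S phase members thus exceeded mitotic members on this scale by 1.16, 0.96 and 0.43 in the 0%-Axitinib replicates and by 2.14, 0.96 and 1.55 in the 3%-Axitinib replicates. The gap was narrowest in the library with precursor markers and widest in 3%-Axitinib replicate 1, and 3%-Axitinib replicate 2 had the same gap as 0%-Axitinib replicate 2. Per kb of exon, the median level of S phase members was 3.22, 2.98 and 13.9 CPM per kb in the 0%-Axitinib replicates and 1.47, 4.96 and 2.67 CPM per kb in the 3%-Axitinib replicates, against 1.40, 1.64 and 11.9, and 0.521, 2.51 and 0.792 CPM per kb for the mitotic members.

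The same order was seen sample by sample. Relative to the mean of 0%-Axitinib replicates 1 and 2, the median mitotic member stood at 0.302, 1.68 and 0.579 times in 3%-Axitinib replicates 1, 2 and 3, and the median S phase member at 0.678, 1.56 and 0.842 times. The median of all genes stood at 0.992, 0.985 and 0.982 times in the same samples. Both 3%-Axitinib replicates 1 and 3 lay below both 0%-Axitinib replicates 1 and 2 for 24 of 27 mitotic members and for 10 of 17 S phase members. The share of all genes with that order was not counted, and the difference between the roles was not tested. 3%-Axitinib replicate 1 was the lowest of all samples for 26 mitotic and 10 S phase members, against 12.7% of all genes tested. The samples with the lower values were those with high muscle RNA, and the sample with the higher values was the one with high bone and matrix RNA. Osteoclast genes, led by Ctsk, also had this order among the 3%-Axitinib replicates, with sums of 3911, 8718 and 5929 CPM against 5838, 7150 and 7007 CPM in the 0%-Axitinib replicates, and chondrocyte genes, led by Comp, had 309, 1233 and 474 CPM against 359, 212 and 167 CPM. Some other lists had a different order in 3%-Axitinib replicates 1, 2 and 3. Endothelial genes summed to 507, 746 and 796 CPM there, and macrophage genes, led by Lyz2, to 8871, 11064 and 17313 CPM. The share of any tissue in these differences was not tested.

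Further lists of cell cycle genes had medians in the same direction with all samples. Their counts by the criterion stand beside 11.7% of all genes as lower and 9.54% as higher, or 13.7% and 14.5% without 0%-Axitinib replicate 3. Of 36 other replication genes, 35 were tested, 3 met the criterion as lower and 0 as higher, and the median log2 fold change was -0.71, or 0.035 without 0%-Axitinib replicate 3, where 2 were lower and 2 higher. In that fit 7 genes had separate groups as higher and 3 as lower, against 26.6% and 27.1% of all genes. Dut, which removes dUTP and was singled out after its values were seen, was the one that passed adjustment by edgeR's test, as did 7.98% of all genes (8.28, 8.37 and 73.4 CPM against 18.4, 21.7 and 15.1 CPM; log2 fold change 1.14, SE 0.23, adjusted p = 0.0452, or -0.71 and 0.634 with all samples). The listed Fen1, the flap endonuclease, had too few reads to test. Pola1, the catalytic subunit of the priming polymerase, had 9.42, 10.1 and 16.0 CPM in the 0%-Axitinib replicates and 6.03, 6.995 and 4.04 CPM in the 3%-Axitinib replicates, a log2 fold change of -1.06 (SE 0.35, adjusted p = 0.148, edgeR). Slbp, which binds the end of histone mRNA, had 22.3, 22.7 and 91.4 CPM against 13.3, 17.3 and 11.1 CPM and a log2 fold change of -1.71 (SE 0.59, adjusted p = 0.155). Neither gene overlapped between the groups, and without 0%-Axitinib replicate 3 their log2 fold changes were -0.78 and -0.70. Cdc7, the kinase that fires origins, had a log2 fold change of -1.74, or -0.54 without that library, and the most abundant gene, the clamp loader subunit Rfc2, had -0.55 and 0.039.

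All 43 other mitotic genes were tested, 4 met the criterion as lower and 0 as higher, and the median log2 fold change was -1.45, or -0.063 without 0%-Axitinib replicate 3, where 1 was lower. That gene was Smc2, a condensin subunit, with 11.7, 15.5 and 58.0 CPM in the 0%-Axitinib replicates and 3.84, 7.72 and 3.18 CPM in the 3%-Axitinib replicates. Its groups did not overlap, and the log2 fold change was -2.53 (SE 0.70, adjusted p = 0.117, edgeR) with all samples and -1.48 (SE 0.42, adjusted p = 0.0724, against 0.00378 to 0.304 over all settings) without 0%-Axitinib replicate 3. Kif15, a spindle kinesin, and the kinetochore scaffold gene Knl1, listed under its older symbol Casc5, had log2 fold changes of -3.61 and -3.003, or -1.06 and -1.09 without that library. Smc4, the partner of Smc2 and the most abundant gene of the list, had -1.08 and -0.38.

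Among 15 G1 cyclins, G1 kinases and other regulators of S phase entry, which include the repressors E2f7 and E2f8, 14 were tested, 5 met the criterion as lower and 0 as higher, and the median was -0.90, or -0.43 without 0%-Axitinib replicate 3, where 2 were lower and 1 higher. E2f3, an activator of replication genes, was measured at 18.2, 21.8 and 26.5 CPM in the 0%-Axitinib replicates and at 11.4, 10.4 and 9.81 CPM in the 3%-Axitinib replicates. Its groups did not overlap, and unlike most members it kept its difference without 0%-Axitinib replicate 3, with a log2 fold change of -1.07 (SE 0.24, adjusted p = 0.0972, edgeR) or -0.93 (SE 0.20, adjusted p = 0.0463, against 0.00227 to 0.280 over all settings). E2f2 had 4.06, 4.83 and 152 CPM against 3.62, 3.18 and 2.89 CPM, so its log2 fold change of -4.06 rested on a single library and was -0.47 (SE 0.31) without it. The repressor gene E2f8 had log2 fold changes of -3.18 and -1.06. The most abundant gene, the G1 kinase gene Cdk4, had 111, 107 and 196 CPM against 184, 201 and 167 CPM, with log2 fold changes of 0.42 (adjusted p = 0.402) and, without 0%-Axitinib replicate 3, 0.76 (SE 0.17, adjusted p = 0.0499, against 0.0499 to 0.6995 over all settings).

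Genes that hold cells out of the cycle also had a median below 0 with all samples, but their separate groups lay in both directions. The groups did not overlap for 5 of them as lower and for 4 as higher (Cdkn2a, Cdkn2b, Trp53 and Gadd45b, named after their values were seen), against 16.6% and 14.7% of all genes. All 22 inhibitor and quiescence genes were tested, 5 met the criterion as lower and 0 as higher, and the median was -0.45. The median was -0.18 when 0%-Axitinib replicate 3 was left out, and then 6 were lower and 1 higher by the criterion, and 2 were lower after adjustment at 0.05 by edgeR's test, which 7.98% of all genes passed in either direction. The first of these was Rbl1, which encodes the pocket protein p107 and was measured at 16.0, 19.6 and 32.1 CPM in the 0%-Axitinib replicates and at 5.92, 6.54 and 6.64 CPM in the 3%-Axitinib replicates. Its log2 fold change was -1.82 (SE 0.32, adjusted p = 0.0965) and, without 0%-Axitinib replicate 3, -1.48 (SE 0.22, adjusted p = 0.0379, against 5.6e-05 to 0.280 over all settings). The other was Cdkn1c, the inhibitor p57, with 76.1, 170.1 and 69.3 CPM against 29.5, 20.6 and 34.2 CPM and log2 fold changes of -1.90 (SE 0.40, adjusted p = 0.0965) and -2.13 (SE 0.37, adjusted p = 0.0386, against 6.6e-04 to 0.281 over all settings). Cdkn1b, the inhibitor p27, had 87.8, 99.0 and 121 CPM against 66.8, 49.5 and 43.8 CPM and log2 fold changes of -0.94 (adjusted p = 0.1000) and -0.81. Rbl1, Cdkn1c and Cdkn1b were among those with separate groups in the lower direction. Cdkn1a, the p53 target p21 and the most abundant gene of the list, had 203, 199 and 82.1 CPM against 284, 194 and 248 CPM and log2 fold changes of 0.59 (adjusted p = 0.373) and 0.27.

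The promoters of the members differ by role in the letters they hold. RefSeq promoters of GRCm38.p6, from 250 bases before to 50 bases after the start, were matched by symbol for 36 of the 44 members (39 promoters), and the members without one were Ccne2, Gins2, Mcm4, Foxm1, Ccna2, Aurkb, Kif20a and Tpx2. Matches on either strand were counted for an E2F motif (TTTCCCGC, TTTCGCGC, TTTGCCGC or TTTGGCGC), for the cell cycle homology region or CHR (TTTGAA or TTCGAA), which DREAM complexes bind, and for the CCAAT box (CCAAT). The E2F motif was found in 5 of 15 promoters of S phase members (33.3%), in 1 of 24 promoters of mitotic members (4.17%) and in 2.26% of all 32851 promoters. The CHR was found in 3 of 15 promoters of S phase members (20%), in 20 of 24 promoters of mitotic members (83.3%) and in 19.2% of all promoters. All 23 member promoters with a CHR also held CCAAT, a pair of motifs found together in 7.52% of all promoters, and CCAAT, with or without a CHR, was in 82.1% of member promoters and in 37.4% of all. A match of letters is a description and not a site of binding.

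The following promoters are shown because Mki67 and Kif11 were among the mitotic members that met the criterion, Mcm6 is the S phase member with the most matches of the E2F motif, and Mcm7 was the member that was higher without 0%-Axitinib replicate 3. They are written 5′ to 3′ with matches of any of these motifs in capitals, and of the listed starts of Mcm7 the upstream one is given, where one E2F match shares letters with a CCAAT match.
Mki67 (chr7:135716330-135716629, minus strand): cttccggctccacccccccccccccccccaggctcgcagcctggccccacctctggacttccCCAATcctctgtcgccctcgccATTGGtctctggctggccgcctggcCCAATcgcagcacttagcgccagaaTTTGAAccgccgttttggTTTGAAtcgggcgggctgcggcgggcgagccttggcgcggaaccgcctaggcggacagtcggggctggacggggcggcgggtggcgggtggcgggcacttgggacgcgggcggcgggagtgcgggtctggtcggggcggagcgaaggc
Kif11 (chr19:37376132-37376431, plus strand): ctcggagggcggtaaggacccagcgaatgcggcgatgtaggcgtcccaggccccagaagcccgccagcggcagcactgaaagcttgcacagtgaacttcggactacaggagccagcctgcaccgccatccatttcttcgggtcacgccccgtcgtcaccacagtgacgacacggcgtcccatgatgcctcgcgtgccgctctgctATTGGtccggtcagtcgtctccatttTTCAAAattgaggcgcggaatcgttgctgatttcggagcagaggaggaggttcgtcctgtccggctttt
Mcm6 (chr1:128359656-128359955, minus strand): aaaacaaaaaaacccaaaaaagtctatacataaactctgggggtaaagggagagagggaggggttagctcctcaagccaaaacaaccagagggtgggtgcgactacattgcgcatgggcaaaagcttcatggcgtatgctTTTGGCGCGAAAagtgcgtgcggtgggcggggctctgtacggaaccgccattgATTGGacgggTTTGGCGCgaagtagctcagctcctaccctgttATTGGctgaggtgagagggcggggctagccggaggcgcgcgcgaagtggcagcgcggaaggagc
Mcm7 (chr5:138171834-138172133, minus strand): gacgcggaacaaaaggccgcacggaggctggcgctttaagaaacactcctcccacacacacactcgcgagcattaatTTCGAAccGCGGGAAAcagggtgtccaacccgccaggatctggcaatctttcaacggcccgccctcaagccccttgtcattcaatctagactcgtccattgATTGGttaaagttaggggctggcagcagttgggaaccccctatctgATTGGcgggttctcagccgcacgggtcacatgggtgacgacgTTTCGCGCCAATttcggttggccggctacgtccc

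The promoter of Mki67 holds 2 matches of the CHR and 3 of CCAAT, that of Kif11 holds 1 of each, that of Mcm6 holds 3 of the E2F motif and 2 of CCAAT, and that of Mcm7 holds 2 of the E2F motif, 1 of the CHR and 3 of CCAAT. No match in a window says only that these letters are not in it.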

How the data were processed

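RNA of 6 samples of murine tissues with entangled BEC was sequenced after poly(A) selection. The authors deposited raw read counts per gene symbol, after filtering with fastp and, per the submitters' processing notes, mapping with STAR 2.5.2b to GRCm38 (mm10). The annotation release and strand setting of the counting are not given in the sources used here. 4 lines naming no gene were left out of all library sizes and of every test. The unmapped share was 3.84% to 48.4% of a library, multimapping reads 2.71% to 6.65%, reads outside genes 3.17% to 6.14% and reads on overlapping genes 3.55% to 5.74%.

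Counts were analyzed in R 4.3.3 with edgeR 4.0.16: filterByExpr (minimum count 10, minimum total 15), TMM, and its quasi-likelihood test, P-values (which measure the spread between samples only) being adjusted by Benjamini-Hochberg over all genes tested. Mean log2 CPM used a prior count of 2. The code was tested on simulated counts. Alternatives used DESeq2 1.42.0 size factors or its Wald test, limma-voom (limma 3.58.1), total counts, TMM without muscle and precursor lists, other filters, a replicate block and samples left out. Positions and exon lengths, the latter joined over all annotated transcripts of a gene, came from GENCODE (GRCm38). Levels per kb therefore depend on the transcripts annotated. Python 3.11.15 and matplotlib 3.10.9 made the figures.

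Values in every sample are given for Mki67, Top2a, Pcna and, in each role, the 4 members with the lowest and the 2 with the highest unadjusted p. In each other cell cycle list, the 3 genes with the lowest p and the most abundant gene were named, and in cell type lists the most abundant gene and markers at or near 0. Cops6, Ap4m1, Fen1, Tnnc2 and other members singled out in the text, such as Gins2 and Ube2c, were chosen after their values were seen. The members and lists were chosen with earlier results of these data known.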

Additional observations from a re-analysis of the deposited data

How the results depend on the processing

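The number of members that met the criterion was 4 with the settings of the report and 4, the same genes, with DESeq2 size factors in edgeR (11.8% of all genes as lower) and with TMM factors made without the muscle and precursor lists (11.7%). It was 4 with at least 10 counts in every sample (12%), where 38 members were tested and the genes were Bub1b, Ect2, Mcm4 and Mki67. It was 9 with total counts (16% of all genes as lower), 19 without a filter (9.44%), 13 of the 33 given a P-value with DESeq2's Wald test (13% of all genes given one) and 0 with limma-voom (9.73%). Leaving out one sample at a time gave 0 to 23: for the 0%-Axitinib group 23, 19 and 1 (Mcm7, higher) on omitting replicates 1, 2 and 3, where 12%, 10.1% and 13.7% of all genes were lower, and for the 3%-Axitinib group 0, 16 and 1, where 8.24%, 9.28% and 8.43% were. Omitting 0%-Axitinib replicate 1 or 2 makes replicate 3, the highest sample for 43 members, a larger part of its group, which itself lowers their fold changes. The number of members thus exceeded the share of all genes in several settings and not in others. Without both 0%-Axitinib replicate 3 and 3%-Axitinib replicate 2, the latter being the highest treated sample for 42 members so that its omission itself lowers them, it was 20 (19 lower, where 14.5% of all genes were lower, and Mcm7 higher). Members with an adjusted p of at most 0.05 numbered 0 in the report, 1 with DESeq2's Wald test (Ect2), 0 to 1 with each sample left out (Mcm7 without 0%-Axitinib replicate 3) and 5 without both of these samples (Mcm7, Mki67, Prc1, Tk1 and Top2a, where 10.2% of all genes passed). DESeq2's test called 1961 of all genes at that threshold, and edgeR's called 1.

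On omission of single samples, the median log2 fold change lay between -1.76 and -0.078 for S phase members and between -2.82 and -0.25 for mitotic members, the upper end of each being without 0%-Axitinib replicate 3. Among the genes selected by P-value or abundance, the log2 fold change reversed without 0%-Axitinib replicate 3 for Rrm2 (0.073, the lowest value on omission of a single sample being -3.05), Tyms (0.40, lowest -1.87), Mcm7 (1.00, lowest -0.69), Hmmr (0.55, lowest -2.79), Kif20a (0.11, lowest -0.77) and Rfc2 (0.039, lowest -0.79), for Kif20a also without 3%-Axitinib replicate 1 (0.045), and for Mcm7 with limma-voom (0.20), with a replicate block (0.23) and without both samples named above (1.00). Without 0%-Axitinib replicate 3 it also reversed for the members Cdc6, Cdc45, Rrm1, Cdk1, Cdc20, Cdca8, Aurka, Plk1, Birc5, Tpx2 and Ube2c. The cause of these changes was not tested. Over the named genes, 338 values under an alternative kept direction and side of the criterion, 56 no longer met it and 34 newly met it.

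With the replicate number as a replicate block, 0 members met the criterion (8.87% of all genes did as lower) and the medians were -0.91 and -1.64. Deviations of same-numbered samples from their group means correlated at 0.18, -0.12 and -0.17 for numbers 1, 2 and 3. Those of differently numbered samples correlated at -0.22 to 0.21. These values cannot decide whether the numbers pair the samples, because tissue content also differed between samples. The lowest count of a member was 4, in 3%-Axitinib replicate 1, the library of least depth. Groups of 3 samples, tissue content that differed between samples and rabbit RNA in the constructs limit every comparison.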

Other observations

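Some genes that lie across another gene had counts far below those of their partners in function, a set chosen after the values were seen. Fen1, which is needed wherever DNA is replicated, had 0.156, 0.174 and 0.217 CPM in the 0%-Axitinib replicates and 0, 0.0908 and 0.462 CPM in the 3%-Axitinib replicates, while the clamp Pcna was between 95.9 and 259.7 CPM. Its gene overlaps Gm10143 over 3253 bases and Tmem258 over 156 bases on the other strand. Tnnc2, a troponin gene of fast muscle, had 0.219 CPM in 3%-Axitinib replicate 1, where the fast troponin gene Tnnt3 had 1700 CPM, and it overlaps Ube2c over 1662 bases on the other strand. Ube2c had 5.83, 6.22 and 144 CPM in the 0%-Axitinib replicates and 1.64, 16.5 and 5.43 CPM in the 3%-Axitinib replicates. Reads on overlapping genes, 3.55% to 5.74% of a library, were counted apart in a line that names no gene. Whether strand was used in that step is not given, and its effect on single genes was not tested. Levels of the 18 members that overlap a gene on the other strand are therefore uncertain.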
